A study of Canis lupus familiaris with 4 samples.

Results

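The start of chromosome 27 of the dog genome (CanFam3.1) was examined in ATAC-seq libraries of MDCKII cells, an epithelial line from canine kidney that forms polarised monolayers. ATAC-seq counts adapters that the transposase Tn5 inserts into open DNA, so that a count in a peak is a measure of accessibility. The peaks described are those of chromosome 27 whose midpoint lies at or below 6000000, which are 350 of 59081 peaks in the whole table and 350 of the 1315 on that chromosome. Cells grown for 7 d to full maturity, then detached and reseeded for 2 h (libraries A and B, n = 2), were compared with monolayers kept at 7 d of growth (libraries A and B, n = 2). Both groups were wild type (wt) cells of the same line, with no other treatment named in the labels, and the series deals with wrinkling of the nucleus and how chromatin is organised. The stretch was proposed because several of the largest losses in this same comparison lie in it, so the folds given for it are a description and carry no test of their own.

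The stretch is taken to hold the type II keratin cluster, near 2 to 3 Mb. Type II keratins are intermediate filament proteins that assemble in pairs with type I keratins. KRT8, with its type I partner KRT18, makes the filaments of simple epithelia such as kidney tubules, and KRT7 is a keratin of ducts. KRT5 belongs to the basal layer of stratified epithelia, KRT1 to the cornifying epidermis, and KRT71 and KRT81 to hair and its sheath. The gene table used here describes another assembly, UU_Cfam_GSD_1.0, and lists 25 of 27 keratin genes looked for, all of them on chromosome 27. There they stand together, from KRT80 and KRT7 at one end, through KRT5, KRT71 and KRT1, to KRT8 and KRT18 at the other. SMIM41 lies next to KRT80 on the outer side, and EIF4B lies close beyond KRT18. As they occupy places 811 to 849 of 958 genes on the chromosome in that assembly, whose numbering cannot be carried over to CanFam3.1, no peak was placed on a gene and the keratin label could not be checked against the data.

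Counts in all peaks totalled 16906566 and 24015663 in reseeded libraries A and B, against 8759513 and 6253706 in mature libraries A and B. Values are given as CPM, counts scaled to a fixed library total after correction by trimmed-mean factors. Every peak is 501 bp wide, so levels of different peaks share 1 length. A count of 3, taken as the floor, equals 0.175 and 0.123 CPM in reseeded A and B, against 0.348 and 0.486 CPM in mature A and B. No label states that libraries A and B were separate cultures, so the spread between them may be technical. Sample names begin with one code for reseeded and another for mature libraries, and a batch marked by it cannot be told apart from reseeding.

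Accessibility of the stretch was lower in reseeded cells. Its peaks held 0.562% (95% exact Clopper-Pearson interval 0.559 to 0.566, counting error only) and 0.561% (0.558 to 0.564) of the counts of reseeded A and B, against 0.739% (0.733 to 0.744) and 0.727% (0.720 to 0.734) of those of mature A and B. The median log2 fold, reseeded over mature, was -0.45 over the 350 peaks (quartiles -0.91 and 0.20), and -0.01 over all 59076 peaks tested (quartiles -0.63 and 1.09). The threshold for a call was an adjusted p of 0.05 by edgeR's quasi-likelihood test over the whole table, and 296 of the 350 peaks (84.6%) were called, beside 84.1% of all tested peaks. Called lower were 218 peaks (62.3%, beside 41.8% of all), of which 79 at least 2-fold (22.6%, beside 15.0%) and 26 at least 4-fold (7.43%, beside 6.04%). Called higher were 78 peaks (22.3%, beside 42.3% of all), of which 44 at least 2-fold (12.6%, beside 26.9%) and 10 at least 4-fold (2.86%, beside 10.1%). Both reseeded libraries lay below both mature libraries at 233 peaks, beside 45.8% of all tested peaks, and above both at 89, beside 45.7%. The groups overlapped at 28, and of all tested peaks 91.5% had groups that did not overlap. Under offsets that follow mean level (loess) the split of changes of at least 2-fold was 23 higher and 82 lower, against 44 and 79 as reported. Since the stretch was chosen on this comparison, nothing is read from the distance between these shares and those of the table.

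Peaks were dense in the stretch, a property that the choice did not use. The first 6 Mb of the other 37 numbered chromosomes held 30 to 458 peaks with a median of 107, and 2 of them held more than the 350 found here. Peaks stood 6.06 kb apart at the median, against 9.94 kb on the rest of chromosome 27 and 9.34 kb over the whole table. In the same 37 starts the median log2 fold ranged from -0.87 to 1.28, and it was lower than in chromosome 27 in 3 of them. The share of peaks at least 2-fold lower ranged from 2.35% to 48.6% and was above the 22.6% found here in 7. On the rest of chromosome 27, 295 of 965 peaks (30.6%) gained and 119 (12.3%) lost at least 2-fold, with a median log2 fold of 0.17.

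The 6 megabases are numbered from the chromosome start. The third, which is the one taken to hold the keratin cluster, had the lowest log2 fold as scaled here, but not under loess offsets. Its 103 peaks summed to 1473.6 and 1470.7 CPM in reseeded A and B, against 2652.0 and 2658.2 CPM in mature A and B, a log2 fold of -0.85 (SE 0.01). The first megabase, with 12 peaks, summed to 179.4 and 181.9 CPM in reseeded A and B, against 269.8 and 271.8 CPM in mature A and B, a log2 fold of -0.58 (SE 0.03). In these windows, as in megabases 2, 4 and 6, both reseeded libraries lay below both mature libraries. The second megabase had 1203.9 and 1179.1 CPM in reseeded A and B, against 1558.6 and 1518.9 CPM in mature A and B (log2 fold -0.37, SE 0.02). Megabases 4 and 6 had log2 folds of -0.24 (SE 0.02) and -0.19 (SE 0.02). The fifth was near balance as a sum, with 799.7 and 793.1 CPM in reseeded A and B, against 789.8 and 774.1 CPM in mature A and B (log2 fold 0.03, SE 0.02). By edgeR's quasi-likelihood test on window sums, 5 of the 6 megabases were called, all lower, and the fifth was not. Of 1803 windows of the genome, 86.0% were called, 34.3% lower and 51.7% higher. Loess offsets gave log2 folds of -0.79, -0.19, -0.56, -0.19, 0.01 and -0.07 in megabases 1 to 6, so that the first then stood below the third. The balance of the fifth was the sum of called windows of 500 kb that went opposite ways, with a log2 fold of 0.80 (SE 0.04) from 4000001 to 4500000 and of -0.18 (SE 0.02) from 4500001 to 5000000. In the fifth as a whole the test gave a called log2 fold of 0.07 when scaled by library size alone and of -0.05 with trimmed-mean factors of the windows themselves, and DESeq2's Wald test gave -0.06 with no call, so its direction depends on the scaling.

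**Figure D1:**
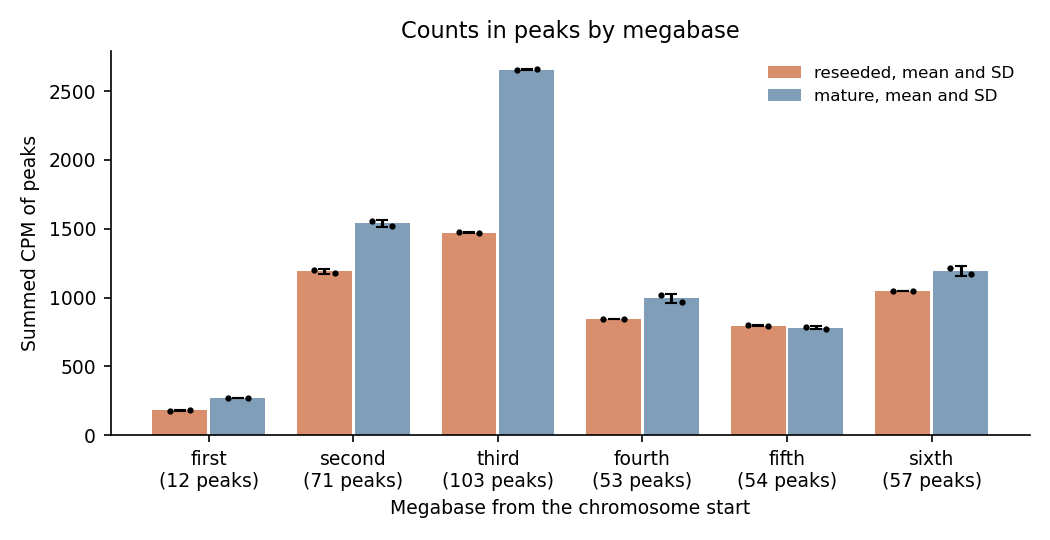
Summed CPM of the peaks in each of the first 6 megabases of chromosome 27, with bars for the mean of 2 libraries, error bars for the SD and dots for single libraries. Reseeded cells are below mature cells in 5 of 6, by the most CPM in the third (1472.1 ± 2.03 CPM in reseeded cells, against 2655.1 ± 4.37 CPM in mature cells), and the fifth is near balance.

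Many peaks shared in the deficit of the third megabase. Of the net difference of -1182.9 CPM, the 18 peaks at least 4-fold lower made up 35.3%, the 31 peaks 2- to 4-fold lower 47.9%, and the 35 peaks called with smaller folds 21.5%. The 18 deeply lost peaks summed to 41.8 ± 2.82 CPM in reseeded cells and 459.5 ± 7.37 CPM in mature cells (mean ± SD, n = 2 each). In the other 5 megabases the net difference of -717.6 CPM had another make-up. There the 8 peaks at least 4-fold lower made up 10.4%, the 138 peaks called with folds under 2 made up 113.3%, and the 38 peaks at least 2-fold higher offset part of it. Losses of at least 2-fold were found at 49 of the 103 peaks of the third megabase (47.6%), with gains of that size at 6 (5.83%). Outside it, 30 of 247 peaks (12.1%) had such losses and 38 (15.4%) such gains.

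Within the third megabase the losses lay in separate blocks on either side of a peak-poor interval. Between the peak that ends at 2238651 and the one that starts at 2606711, 368.1 kb held 3 peaks. They did not move alike: the peak from 2374410 to 2374910 had 11.3 and 11.5 CPM in reseeded A and B, against 9.39 and 12.3 CPM in mature A and B. The peak from 2495905 to 2496405 had a log2 fold of 0.89 (SE 0.13) and that from 2513234 to 2513734 one of -1.33 (SE 0.15). On the side nearer the chromosome start, the bins of 100 kb from 2100001 and from 2200001 held 16 and 15 peaks, with 8 at least 2-fold lower in each. On the far side, the 3 bins from 2700001 to 3000000 held 13, 22 and 16 peaks, with 7, 13 and 9 at least 2-fold lower. The bin from 2800001 to 2900000 summed to 312.2 ± 7.53 CPM in reseeded cells and 701.8 ± 4.91 CPM in mature cells (n = 2 each). Next to the peak-poor interval, the bin from 2600001 to 2700000 leaned the other way, with 143.3 ± 1.16 CPM in reseeded cells and 121.8 ± 5.48 CPM in mature cells.

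**Figure D2:**
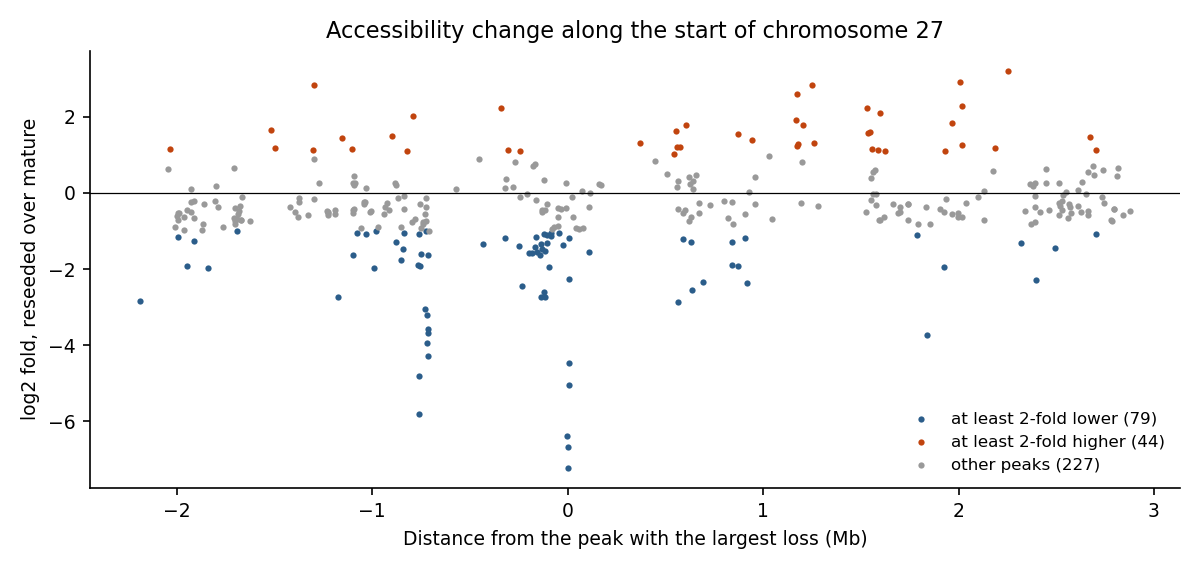
Log2 fold, reseeded over mature, of each of the 350 peaks against distance in Mb from the peak with the largest loss, coloured by whether the peak was called and at least 2-fold lower (79), at least 2-fold higher (44) or neither (227). Log2 folds below -4 stand in columns at 3 runs of losses, the left pair of them close together, and gains are scattered, most of them to the right.

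The 10 lowest peaks were taken among called peaks whose groups do not overlap and whose counts average 50 or more. All 10 lay in the third megabase, inside 3 runs of neighbouring losses. The peak from 4785662, in the fifth megabase, had a log2 fold of -3.73, below the -3.68 of the last of the 10. It was left out by the rule on counts. A run is at least 3 peaks in order, each midpoint within 10 kb of the one before, that are all called and at least 2-fold lower. The stretch held 6 such runs with 27 peaks, all of them in the third megabase. Runs of gains numbered 2 with 7 peaks, both in the fifth. The number of runs over the whole table is not given here, so 6 is not read as many. Among all 59076 tested peaks, the log2 folds of the 3 lowest members ranked 1, 2 and 4 from the bottom. The 100 lowest included 6 members, and members make up 0.592% of the table. Since the stretch was chosen for its losses, nothing is read from these ranks. Loess offsets put the log2 folds of the 10 lowest peaks by the rule above between -10.11 and -4.59.

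The deepest run extended over 9.37 kb, from 2946587 to 2955955, and held 7 peaks. Its peak from 2947116 to 2947616 had 4 and 5 counts (0.233 and 0.205 CPM) in reseeded A and B, against 286 and 211 counts (33.2 and 34.2 CPM) in mature A and B. That is a log2 fold of -7.22 (SE 0.21), and the pooled counts were 155-fold lower (95% exact Clopper-Pearson counting interval 81.0 to 340.9). The peak was clearly open in both mature libraries and within a few counts of the floor in both reseeded ones.

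Its neighbours on both sides were nearly as low. The adjoining peak from 2946587 to 2947087 had 0.467 and 0.287 CPM in reseeded A and B, against 30.6 and 31.4 CPM in mature A and B (log2 fold -6.39, SE 0.21). On the other side, the peak from 2947988 to 2948488 had 3 and 4 counts in reseeded A and B, with library A at the floor, against 137 and 130 counts in mature A and B (log2 fold -6.68, SE 0.34). Its pooled counts were 107-fold lower (counting interval 51.2 to 268.8).

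Further along the same run the losses were smaller. The peaks from 2952069 to 2952569 and from 2952580 to 2953080 had log2 folds of -4.46 (SE 0.27) and -5.03 (SE 0.28). That from 2954227 to 2954727 had 3.62 and 3.81 CPM in reseeded A and B, against 17.2 and 19.3 CPM in mature A and B (log2 fold -2.27, SE 0.16). The last, from 2955455 to 2955955, had 16.4 and 15.2 CPM in reseeded A and B, against 34.1 and 37.4 CPM in mature A and B (log2 fold -1.18, SE 0.09). The next peak out, 7.35 kb before the run, had a log2 fold of -0.40 (SE 0.13), and the next one after the run, 16.2 kb away, had -0.12 (SE 0.09). The 7 peaks of the run had median levels of 0.525 and 0.574 CPM in reseeded A and B, against 17.2 and 22.7 CPM in mature A and B.

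Another deep site lay in the run of 4 peaks from 2182712 to 2188596. The peak from 2188096 to 2188596 had 9 and 7 counts (0.525 and 0.287 CPM) in reseeded A and B, against 198 and 131 counts (23.0 and 21.2 CPM) in mature A and B, a log2 fold of -5.81 (SE 0.25). The peak before it, from 2186901 to 2187401, had 0.350 and 0.738 CPM in reseeded A and B, against 14.0 and 19.3 CPM in mature A and B (log2 fold -4.81, SE 0.29). Its log2 fold was -5.51 without reseeded library B. The remaining peaks of the run were much milder, with log2 folds of -1.88 (SE 0.11) and -1.08 (SE 0.12). A peak 3.71 kb after the run was still open in all libraries. It had 36.5 and 32.9 CPM in reseeded A and B, against 41.4 and 42.3 CPM in mature A and B. Losses were found again beyond it. The next peaks, from 2193084, 2195342 and 2198006, had log2 folds of -1.91 (SE 0.10), -0.92 (SE 0.09) and -1.61 (SE 0.11).

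The remaining deep run, of 6 peaks from 2227922 to 2235710, was lower as a whole. Its summed levels were 14.6 and 17.3 CPM in reseeded A and B, against 140.2 and 128.5 CPM in mature A and B. Of its peaks 5 were at least 4-fold lower, with log2 folds of -3.93 (SE 0.25), -3.21 (SE 0.15), -3.68 (SE 0.18), -4.27 (SE 0.24) and -3.56 (SE 0.14) in order along the chromosome, and the last, from 2235210 to 2235710, had -1.64 (SE 0.13). The lowest of them, from 2231248 to 2231748, had 0.584 and 1.23 CPM in reseeded A and B, against 19.6 and 17.5 CPM in mature A and B. Its log2 fold was -4.97 without reseeded library B. The nearest peaks outside the run had log2 folds of -0.36 (SE 0.13) and -0.99 (SE 0.12), at 4.59 kb before and 2.44 kb after it. Further out on the side before the run, the peak from 2219727 was also deeply lower. It had means of 3.15 CPM in reseeded cells and 26.3 CPM in mature cells (log2 fold -3.05, SE 0.14).

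**Figure D3:**
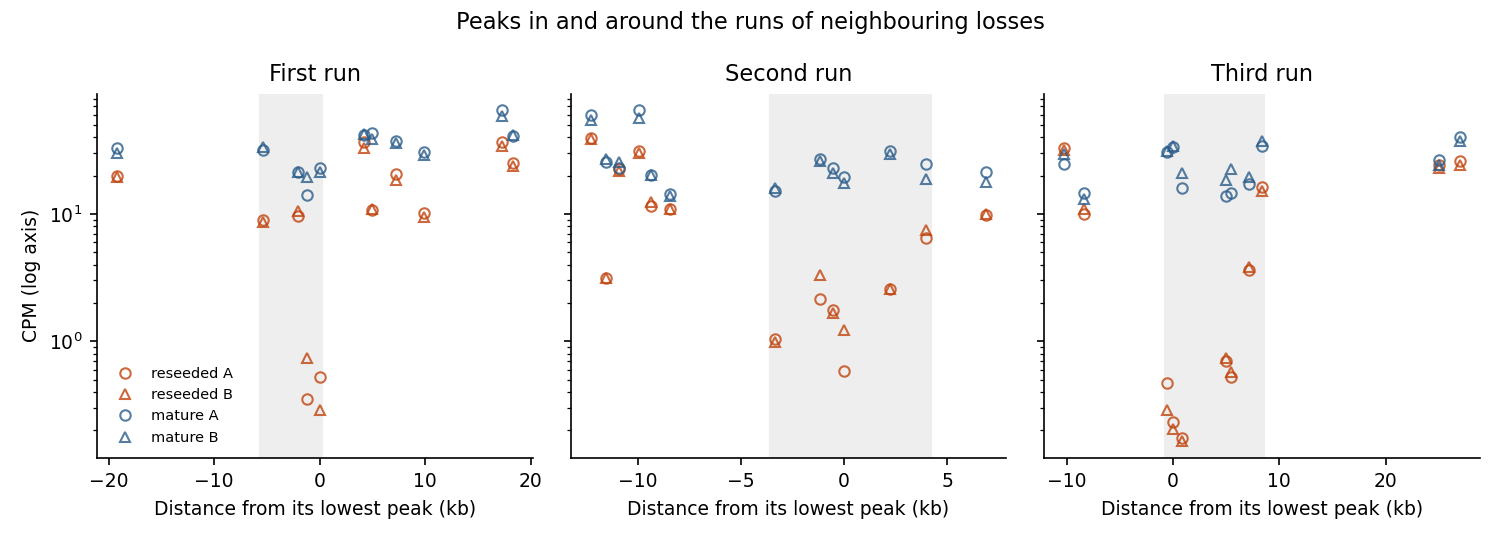
CPM on a log axis of every peak within 20 kb of the 3 deepest runs of losses (grey bands, in order along the chromosome), against distance in kb from the lowest peak of each run, with reseeded libraries in red and mature libraries in blue (circles A, triangles B). In each run the mature libraries stay between 13.9 and 37.4 CPM. The reseeded libraries drop to 0.287, 0.584 and 0.164 CPM at the lowest in the runs in order. Outside the bands most peaks are open in all 4 libraries.

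Milder runs lay between these, from 2807084 to 2811251 (3 peaks), from 2827227 to 2830706 (4 peaks) and from 2842593 to 2851183 (3 peaks). Here accessibility was reduced but not lost at the median peak. Run medians were 12.2, 9.71 and 8.58 CPM in reseeded cells and 31.6, 24.3 and 18.7 CPM in mature cells. One of their peaks was among the stronger ones of the mature monolayer: from 2829682 to 2830182 it had 11.0 and 12.5 CPM in reseeded A and B, against 81.7 and 75.8 CPM in mature A and B (log2 fold -2.73, SE 0.08). The other 3 peaks of its run had log2 folds between -2.60 and -1.09. In the run from 2842593, the log2 folds were -1.31 (SE 0.08), -1.11 (SE 0.13) and -1.95 (SE 0.26). Single peaks of the milder runs were well below the run medians in reseeded cells. Those from 2810751, 2828651 and 2850683 had means of 2.85, 2.76 and 2.31 CPM in reseeded cells. In mature cells they had 19.9, 16.7 and 9.23 CPM (log2 folds -2.74, -2.60 and -1.95).

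The strongest peaks of the stretch stayed open in reseeded cells, but a ranking over both groups disfavours peaks that closed. By mature level alone, the peak from 2829682 (mean 78.7 CPM) stood above one of the 5, that from 5475345 (77.4 CPM). In reseeded cells the peak from 2829682 had a mean of 11.8 CPM. Ranked by mean CPM over both groups, the first was the peak from 1847782 to 1848282, with 101.4 and 98.1 CPM in reseeded A and B, against 141.6 and 130.2 CPM in mature A and B (log2 fold -0.45, SE 0.06). The peaks from 5788380 to 5788880 and from 5475345 to 5475845 had log2 folds of -0.57 (SE 0.07) and -0.45 (SE 0.07). The other 2 of the 5 strongest lay in the third megabase and differed more. From 2861712 to 2862212, levels were 44.8 and 43.8 CPM in reseeded A and B, against 93.5 and 101.4 CPM in mature A and B (log2 fold -1.13, SE 0.07), and from 2786134 to 2786634 the log2 fold was -1.17 (SE 0.07). Under loess offsets, the log2 folds of the peaks from 1847782 and from 5475345 were 0.04 and -0.09 and neither was called, so their small differences depend on the scaling.

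Some well-covered peaks were nearly level between the states. Of the peaks at or above the median level, the 5 with the smallest fold were at 3059930, 4525093, 5495879, 5338437 and 2109710, with log2 folds of -0.08 to 0.02 (SE 0.09 to 0.12), none of them called and each of them with a change of sign under some alternative. The peak from 3059930 to 3060430 had 17.2 and 16.3 CPM in reseeded A and B, against 16.5 and 16.7 CPM in mature A and B, so that a ratio of pooled counts of 1.01 came with a counting interval of 0.870 to 1.17. Counting error alone allows any ratio inside that interval. The test used for calls also carries the spread between libraries, so the interval is not its limit of detection. The peak from 2109710 to 2110210 lies within 100 kb of the run from 2182712 and had 23.9 and 24.6 CPM in reseeded A and B, against 24.6 and 27.2 CPM in mature A and B.

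Gains were smaller than losses and most lay beyond the third megabase. Of the 44 peaks at least 2-fold higher, 27 were in megabases 4 and 5. The highest log2 fold, 3.21 (SE 0.15), was at the peak from 5200121 to 5200621, with 32.2 and 33.1 CPM in reseeded A and B, against 3.13 and 4.05 CPM in mature A and B. Next came the peak from 4955056 to 4955556, with 27.7 and 26.3 CPM in reseeded A and B, against 2.55 and 5.02 CPM in mature A and B (log2 fold 2.90, SE 0.17). The rule for the 10 highest peaks required groups that do not overlap, so their separation is not a result. No member was among the 100 highest folds of the table.

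None of these gained peaks was at the floor in mature cells. Across the 10 highest, mean levels ranged from 7.72 to 32.7 CPM in reseeded cells and from 1.71 to 4.75 CPM in mature cells, with log2 folds of 2.01 to 3.21. Those from 2606711 and from 2156923 were the 2 that lay in the third megabase, and loess offsets gave the second of these a log2 fold of 0.09 with no call. The first of these, from 2606711 to 2607211, had 20.6 and 23.5 CPM in reseeded A and B, against 4.64 and 4.86 CPM in mature A and B (log2 fold 2.23, SE 0.15), at the edge of the peak-poor interval. The peak from 4545453 to 4545953 had 9.74 and 11.9 CPM in reseeded A and B, against 3.25 and 1.62 CPM in mature A and B (log2 fold 2.09, SE 0.23), and its log2 fold was 2.76 without mature library A, 1.76 without mature library B and 0.66 under loess offsets. Loess offsets put the 10 highest log2 folds between 0.08 and 3.17, with 0.77 at the peak from 4966718 (2.27 as reported) and 1.79 at that from 1648827 (2.84 as reported).

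**Figure D4:**
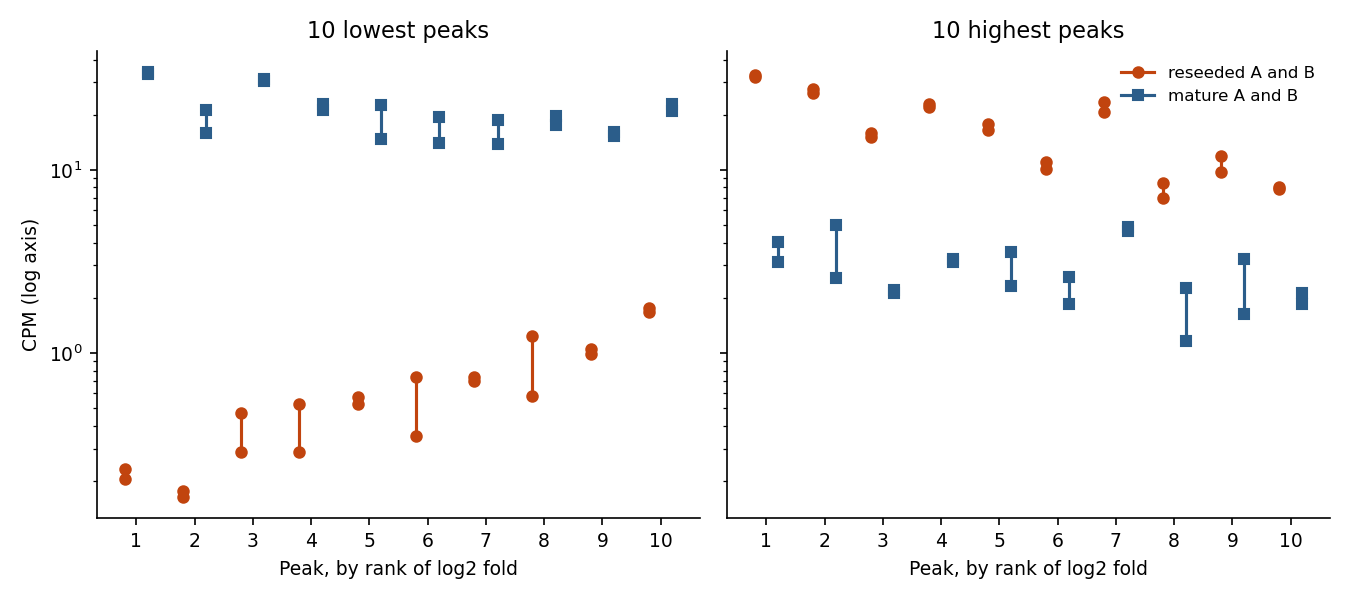
CPM on a log axis in each library at the 10 lowest (left) and 10 highest (right) peaks of the stretch, ordered by log2 fold. Only called peaks whose groups do not overlap and whose counts average 50 or more were eligible. Reseeded libraries are red circles and mature libraries are blue squares, joined within a group. Lost peaks have 0.170 to 1.72 CPM in reseeded cells and 15.6 to 33.7 CPM in mature cells as group means, a wider separation than at gained peaks.

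The runs of gains were weak in mature cells, with run medians of 3.06 and 2.28 CPM beside a median of 16.5 CPM over the stretch. In reseeded cells the run medians were 9.19 and 7.72 CPM beside 11.6 CPM. The peak from 4119198 stood above that level, with 16.4 and 17.8 CPM in reseeded A and B. The 4 peaks from 4116657 to 4124580 summed to 41.4 and 43.6 CPM in reseeded A and B, against 9.74 and 14.6 CPM in mature A and B, with log2 folds of 1.23 to 2.59. The 3 peaks from 4480562 to 4494336 summed to 24.1 and 20.8 CPM in reseeded A and B, against 5.80 and 7.45 CPM in mature A and B, with log2 folds of 1.56 to 2.23. Loess offsets gave log2 folds of -0.38 and -0.24 at the peaks from 4120581 and from 4124080, and -0.41 and -0.01 at those from 4485267 and from 4493836, none of them called. The peak from 4480562 had 0.08 under these offsets and was not called either, so the direction of 4 of the 7 peaks, and the call of 5, depend on the scaling. Mature library B also stood above mature library A there, by a median log2 ratio of 0.56 in the first run and 0.32 in the second.

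The log2 ratio of library B over library A, with 0.5 CPM added to each, did not enter the choice of the stretch. The classes of peaks below were nevertheless set by the fold and call of the same 4 libraries. A call depends on the spread within groups, so closeness of libraries within a class is partly fixed by the selection. The added CPM pulls the ratio towards 0 where levels are low, as in reseeded cells at the deepest losses. At the 26 peaks at least 4-fold lower its median was 0.06 between the reseeded libraries and -0.02 between the mature libraries, and mature B exceeded mature A at 12 of the 26. With no CPM added, an alternative chosen after seeing the data, these medians were 0.08 and -0.02, with a range of -0.87 to 1.08 between the reseeded libraries and of -0.35 to 0.88 between the mature libraries. The reseeded libraries were at least 2-fold apart at 2 of the 26 peaks, those from 2186901 and from 2231248. No such distance was found between the mature libraries. Among the 44 gains of at least 2-fold, mature B exceeded mature A at 34, with a median log2 ratio of 0.24. Over all tested peaks the same measure was 0.20 at peaks 2- to 4-fold higher and 0.30 at peaks at least 4-fold higher, and the part of this ratio in the gains was not tested. As a description over 350 peaks that share 4 libraries, log2(CPM + 0.5) had a Pearson's r of 0.991 within the reseeded pair, 0.974 within the mature pair and 0.443 to 0.447 across groups.

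**Figure D5:**
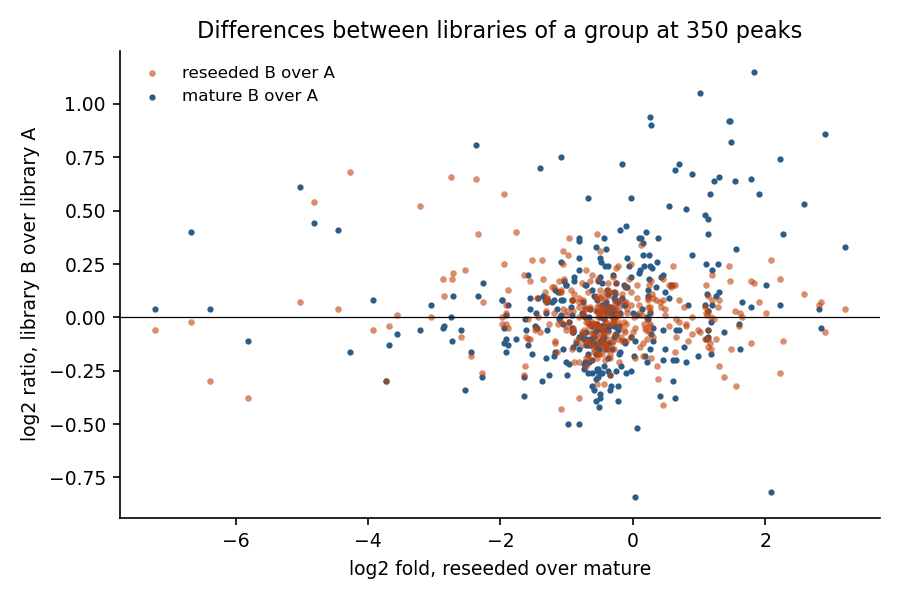
Log2 ratio of library B over library A, within the reseeded pair (red) and the mature pair (blue), with 0.5 CPM added to each library, against log2 fold for each of the 350 peaks. Ratios center on 0 at lost peaks (median 0.06 reseeded and -0.02 mature at the 26 peaks at least 4-fold lower), and mature ratios lie mostly above 0 at gained peaks (34 of 44).

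Close neighbours had like folds, given here as a description. At spacings up to 1 kb, Pearson's r of the log2 folds of next neighbours was 0.817, with one sign shared by 85.2% of 54 pairs. For 110 pairs at 1 to 5 kb it was 0.540 (67.3% sharing a sign), for 114 pairs at 5 to 20 kb 0.191 (61.4%), and for 64 pairs at 20 to 100 kb 0.0981 (68.8%). Over the whole table r was 0.617, 0.33, 0.195 and 0.128 at these spacings, and 72.8%, 60.3%, 57.6% and 55.4% of pairs shared a sign. Most peaks of the stretch had folds below 0, which bears on its shares of pairs with a sign in common. The pairs share their libraries, and members of a pair lie side by side. In the third megabase 23 of 103 spacings (22.3%) were under 1 kb, against 11.5% over the whole table.

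Adjacent peaks stood up to 1 kb apart in 54 pairs and 1 to 5 kb apart in 110. Of these pairs, 4 were split between a loss and a gain of at least 2-fold. The share over the whole table is not given here, so 4 is not read as few. In the pair with the widest difference, 1.63 kb apart, the peak from 3818791 to 3819291 had 12.4 and 12.6 CPM in reseeded A and B, against 3.36 and 5.51 CPM in mature A and B (log2 fold 1.55, SE 0.18). Its neighbour from 3820417 to 3820917 had 3.21 and 3.36 CPM in reseeded A and B, against 12.4 and 12.5 CPM in mature A and B (log2 fold -1.91, SE 0.20). The pair at 4873820 and 4876324 had log2 folds of -1.94 and 1.09, and that at 2700355 and 2701877 had -1.40 and 1.11.

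Single losses also occurred far from the runs. The first peak of the chromosome, from 759092 to 759592, stood alone, with 141.2 kb free of peaks after it. It had 1.58 and 1.72 CPM in reseeded A and B, against 12.2 and 11.8 CPM in mature A and B (log2 fold -2.85, SE 0.25). The peak from 4785662 to 4786162 had 0.875 and 0.615 CPM in reseeded A and B, against 10.7 and 8.59 CPM in mature A and B (log2 fold -3.73, SE 0.34), and was the lowest outside the third megabase. These single losses were chosen after their values were seen.

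The bound at 6 Mb fell in a gap. The last peaks inside it, from 5761202, 5788380 and 5825686, had log2 folds of 0.66, -0.57 and -0.47. The next 3, from 6570137, 6581718 and 6584814, had -0.52, -0.13 and -0.24 and began 744 kb beyond the last member. The peaks on either side of the bound were thus all within 2-fold of equal.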

How the data were processed

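Bowtie2, MACS2 and the build CanFam3.1 are named per the submitters' processing notes. What these tools were set to, how duplicates were treated and how peaks entered the table is not given in the sources used here. Raw counts make up the table the authors deposited, 1 per peak and library and not normalized. Chromosomes were read from sequence accessions, and positions are printed counting from 1.

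Counts were analysed with edgeR 4.0.16 in R 4.3.3: filterByExpr (59076 of 59081 peaks, including all 350 members), trimmed-mean factors, and a quasi-likelihood test of reseeded against mature over the whole table without a block, with Benjamini-Hochberg adjustment at 0.05. Counts summed over windows of 1 Mb with at least 5 peaks were tested likewise with the scaling of the peaks. The SE of a log2 fold comes from the fold and its F statistic. The fit was also run on simulated data, but no outcome is given here and nothing is read from it. Limma 3.58.1 supplied loess offsets, and DESeq2 1.42.0 size factors and a Wald test. Intervals and floors cover counting error only, since no molecular identifiers are named.

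The members, lists and rules were chosen with earlier results of these data known. Peaks named with values are the 10 lowest and 10 highest called folds whose groups do not overlap and whose counts average 50 or more, the 5 strongest, the 5 nearest to equal among peaks at or above the median level, runs and their nearest neighbours, the 3 most opposed neighbouring pairs, and 3 peaks on either side of the bound. The 3 peaks of the peak-poor interval were added after the values were seen. As the gene table describes another assembly, peaks were not placed on genes and no sequence is shown.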

Additional observations from a re-analysis of the deposited data

How the results depend on the processing

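Of 168 alternatives for the main counts, windows and runs, 158 left the result as it was (direction and call, a count within 1.5 times, or a value within its spread). Loess offsets gave 23 gains of 2-fold or more and 5 of 4-fold or more. The cause was not tested. The median log2 fold was -0.40 by library size alone, -0.49 with the bound at 5 Mb, and -0.45 to -0.41 with a library left out. The fifth megabase had 0.07 by library size alone -0.05 with trimmed-mean factors of the windows, an alternative chosen after seeing the data, and -0.06 by DESeq2's Wald test. Windows of 500 kb gave 10 lower calls, as more windows were tested, and 1 higher. Runs of gains numbered 1 with gaps of up to 5 kb.

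Leaving out each library in turn gave 63 to 79 calls higher and 193 to 214 lower, 35 to 48 gains and 77 to 80 losses of at least 2-fold, and 8 to 13 gains and 25 to 29 losses of at least 4-fold. The megabases in order had log2 folds of -0.59 to -0.57, -0.39 to -0.35, -0.85 in each case, -0.27 to -0.20, 0.01 to 0.04 and -0.22 to -0.16. Of 720 alternatives for 60 named peaks, 704 kept direction and threshold. In 13 the sign changed, and 8 of these were at peaks nearest to equal. The other 5 were under loess offsets (peaks from 1847782 at 0.04, 4120581 at -0.38, 4124080 at -0.24, 4485267 at -0.41 and 4493836 at -0.01), where the peaks from 2156923 (0.09), 4480562 (0.08) and 5475345 (-0.09) also lost their call. Of the near-equal peaks, that from 2109710 had 0.07 under loess offsets and that from 4525093 had 0.10, and 0.02 by library size alone. With a library left out, the peak from 4525093 ranged from -0.13 to 0.07, 3059930 from -0.02 to 0.06, 5338437 from -0.24 to 0.05 and 5495879 from -0.06 to 0.13. These offsets moved the median of all peaks to -0.11.

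With the replicate block by library letter, 78 members were called higher and 216 lower, and every named peak and window kept its call. The labels do not say whether the letters pair the libraries. Across peaks, the A to B differences in one group and in the other had a correlation of 0.0314, which cannot decide it, since pairing need not leave a shared pattern. Depth limits the 4 deepest losses, where reseeded counts of 3 to 9 set the fold.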
